A study of Mus musculus with 2 samples.

Results

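Transcripts of 10 histone lysine demethylase genes were measured by mRNA-seq in the iXist-ChrX-Dom line before induction. The genes were chosen by name (Kdm1a, Kdm2a, Kdm2b, Kdm3a, Kdm4a, Kdm4c, Kdm5a, Kdm5b, Kdm6a and Kdm6b), and all 10 were found among the 22556 genes of the count table. The line is a female XX mouse embryonic stem cell (mESC) line of Dom/129S by Cast origin, in which a TetOn promoter took the place of the endogenous Xist promoter on the Dom/129S allele. Both libraries were untreated (0 h), so both carry the engineered allele and neither had received doxycycline. They form 1 group of 2 replicates, and no treatment, time point or genotype could be compared. The cultures were kept on inactivated mouse fibroblast feeders in serum and LIF, and the feeders were removed by pre-plating. Nothing in the labels says that the replicates came from separate cultures, so their spread may be technical.

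Histone lysine demethylases take methyl groups off lysines of histone tails. KDM1A (also called LSD1) does so with a flavin cofactor and acts on H3K4me1 and H3K4me2, whereas the other KDM families use the JmjC domain, iron and 2-oxoglutarate. KDM2 enzymes act on H3K36, KDM3 on H3K9, KDM4 on H3K9 and H3K36, KDM5 on H3K4 and KDM6 on H3K27, so the families reverse marks of both active and silent chromatin. In mESCs these marks accompany pluripotency and the chromatin changes that follow Xist expression on the X chromosome.

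Depth and cell identity were checked first. Gene counts summed to 23716499 in replicate 1 and to 20275749 in replicate 2, so a count of 0 allows up to 0.126 and 0.148 counts per 1000000 (CPM), taking 3 counts as the one-sided 95% limit, for counting error only. Of 10 ES cell markers, all had a mean of at least 1 TPM with the deposited gene length, and 9 did with exonic length. Their summed levels were 3511 and 2817 CPM. Utf1, the marker below 1 TPM there, had 9 and 4 counts and 0.757 TPM with exonic length. The feeder marker Col1a2 had the same counts. In the count test described below, 8 of the 10 ES cell markers were lower in replicate 2, against 45.7% of all genes tested. Only 1 was higher, against 15.1%. With TMM factors 5 were lower, against 28.9%, and 3 higher, against 28.8%. With a GC trend 5 were lower, against 21.6%, and 2 higher, against 24%. The widest gaps were those of Pou5f1 (1129 and 142 counts) and Dppa5a (2915 and 298 counts). Markers of feeder fibroblasts reached 1 TPM in 4 of 10 cases and summed to 380.5 and 336 CPM, most of it from Fn1 and Sparc. Twist1 (111 and 95 counts) and Thy1 (32 and 2) also reached 1 TPM, while Lum had 0 counts and Col1a1, Col3a1, Postn and Dcn had 5 or fewer in each library. Neural precursor markers reached 1 TPM in 2 of 6 cases (37.8 and 41.9 CPM in sum), namely Sox11 with 666 and 690 counts and Nes with 181 and 136. Sox1 is listed at 0, but its whole span lies within another gene of the same strand, so this 0 does not show its level. One label field describes the cell type as mESC to NPC, and the sample titles give ES cells at 0 h. All 4 Y-linked markers had 0 counts in both libraries. The part of residual feeder RNA in the levels below was not tested, and in bulk RNA more expressing cells cannot be told apart from more RNA per cell.

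The absence of Y-linked counts bears on Kdm6a, because its Y-linked partner Uty is a close copy. Over 3618 aligned coding bases of the GENCODE M21 transcripts the pair was 83.9% identical, with a longest identical run of 61 bases. The window below is the 81-base stretch in which they are most alike, shown because reads from here are the hardest to assign. It holds 1 difference against a median of 12 over all such windows, and the capitals mark that base. In Kdm6a the window joins chrX:18246410-18246416 and chrX:18246975-18247048 (GRCm38, plus strand, coding parts of exons 12 and 13 of a 29-exon transcript). In Uty it joins chrY:1169965-1169971 and chrY:1169184-1169257 (minus strand, exons 12 and 13 of 27).
Kdm6a: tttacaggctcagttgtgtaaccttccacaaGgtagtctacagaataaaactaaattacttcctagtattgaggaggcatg
Uty: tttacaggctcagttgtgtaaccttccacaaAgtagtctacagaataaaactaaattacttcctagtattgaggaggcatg
Of the 5886 words of 50 bases in the longest Kdm6a transcript, 12 (0.204%) also occurred in another gene, and that gene was Uty in every case. Uty had 0 counts in both libraries, so its transcripts were not detected as a source of Kdm6a counts at this depth. Kdm2b shared 642 of 5131 words (12.5%), of which 566 were shared with the processed pseudogene Gm12397 and 76 with the locus Gm44574. Neither is listed in the count table, and the Kdm2b level is therefore uncertain to the extent that reads were split or dropped there. The remaining 8 members shared no word with another gene.

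Levels are given as transcripts per 1000000 (TPM), that is counts per kb scaled to 1000000 within each library. The deposited gene length is the whole transcribed span with its introns, because fragments were counted over whole transcripts, and TPM with this length is called span TPM. The members' spans were 2.28 to 37.6 times as long as their exons, so each level is also given with the exonic length of the GENCODE M21 basic annotation (exonic TPM). Values are means ± SD over the 2 replicates. The order of the members depends on that choice, and statements on order name the scale. The authors state that these mRNA-seq data hold very few intronic reads. Differences between genes in span TPM therefore also reflect the length of their introns. No member overlapped another gene of the table on its own strand. Kdm5a was overlapped on the opposite strand by Ccdc77, and counting was strand-specific.

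As a set the demethylase transcripts were abundant. On the span scale 10 of 10 members had at least 1 TPM, against 52.7% of all genes, and on the exonic scale 9 of 10 did, against 55.4%. The median level of the members was 49.6 span TPM (45.9 in replicate 1 and 53.3 in replicate 2) and 91.8 exonic TPM, against 1.35 and 1.85 over all genes. Many of those genes were silent, and the 12251 genes with at least 1 exonic TPM had a median of 18.4. Among these detected genes Kdm4c stood at the 94.8 percentile, Kdm2a at 63.7, Kdm2b at 55.8 and Kdm4a at 34.7. The 4 highest on the exonic scale were Kdm4c, Kdm1a, Kdm6a and Kdm3a, and Kdm6b alone lay below 1 TPM.

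The H3K4 demethylases among the 10 members are the flavin enzyme Kdm1a and the JmjC enzymes Kdm5a and Kdm5b. Kdm1a (chromosome 4, 136550532 to 136602723, minus strand) had 6143 counts in replicate 1 and 4251 in replicate 2. Its level was 79.3 and 72.1 span TPM, a mean of 75.7 ± 5.13 (SD, n = 2), and 248 ± 26.3 exonic TPM, which placed it at the 96.1 percentile of all genes on the exonic scale. Kdm5b (chromosome 1, 134560177 to 134632878, plus strand) had 7938 and 5164 counts. This gave 73.6 and 62.9 span TPM, a mean of 68.2 ± 7.60 (SD, n = 2), and 104 ± 15.5 exonic TPM. Kdm5a (chromosome 6, 120364098 to 120444574, plus strand), which encodes a retinoblastoma-binding protein, had 6271 and 5507 counts. Its level was 52.5 and 60.6 span TPM, a mean of 56.5 ± 5.68 (SD, n = 2), and 79.7 ± 4.96 exonic TPM. Kdm5b exceeded Kdm5a in both replicates on either length, and both lay below Kdm1a on the exonic scale.

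The H3K9 demethylases Kdm3a and Kdm4c were among the most counted members. Kdm3a (chromosome 6, 71588969 to 71632917, minus strand), which acts on H3K9me1 and H3K9me2, had 8564 and 6675 counts. It reached 131 and 134 span TPM, a mean of 133 ± 2.16 (SD, n = 2) and the highest span level of the 10 members, and 224 ± 4.95 exonic TPM. Kdm4c (chromosome 4, 74242496 to 74405864, plus strand), which acts on H3K9me3, had 9523 and 8515 counts. Its span level was 39.3 and 46.1 TPM, a mean of 42.7 ± 4.83 (SD, n = 2), whereas its exonic level was 292 and 325 TPM, a mean of 308 ± 23.1 and the highest of the members. Kdm4c is spread over 163369 bp with 4340 bp of exon, the widest such ratio of the 10 genes, and it moved from sixth place on the span scale to first on the exonic scale.

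Kdm4a stood apart from its paralogue Kdm4c. Kdm4a (chromosome 4, 118137003 to 118180043, minus strand), which acts on H3K9me3 and H3K36me3, had 387 counts in replicate 1 and 180 in replicate 2. This gave 6.06 and 3.70 span TPM, a mean of 4.88 ± 1.67 (SD, n = 2), and 10.2 and 5.89 exonic TPM, a mean of 8.04 ± 3.04. The ranges of the paralogues did not overlap on any scale, and Kdm4a also had the widest relative spread between replicates of the members. Within each library the log2 ratio of Kdm4a over Kdm4c was −2.70 and −3.64 in span TPM, a mean of −3.17 ± 0.67 (SD, n = 2). Kdm4c was thus 8.99-fold higher by span and 39.7-fold higher by exonic length.

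The H3K36 demethylases of the KDM2 family were lower than most other members. Kdm2a (chromosome 19, 4316146 to 4397077, minus strand) had 2724 and 2095 counts, which gave 22.7 and 22.9 span TPM, a mean of 22.8 ± 0.156 (SD, n = 2), and 36.5 ± 1.15 exonic TPM. Kdm2b (chromosome 5, 122870674 to 122989092, minus strand), whose protein carries a CpG-binding zinc finger and brings a Polycomb complex to CpG islands, had 1194 and 778 counts. Its level was 6.80 and 5.81 span TPM, a mean of 6.31 ± 0.695 (SD, n = 2), and 24.5 ± 3.64 exonic TPM. Kdm2a exceeded Kdm2b in both replicates on either length. The log2 ratio of Kdm2a over Kdm2b was 1.86 ± 0.17 (SD, n = 2) in span TPM and 0.58 in exonic TPM, and the fold by span was 3.63.

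The H3K27 demethylases differed most. Kdm6a (X chromosome, 18162666 to 18279358, plus strand), also known as Utx and as a gene that escapes X inactivation, had 9194 and 9747 counts. Its level was 53.1 and 73.9 span TPM, a mean of 63.5 ± 14.7 (SD, n = 2), and 206 and 272 exonic TPM, a mean of 239 ± 46.4. Kdm6b (chromosome 11, 69398517 to 69413675, minus strand), also known as Jmjd3 and as an inducible enzyme in several cell types, had 30 and 26 counts. This is 1.26 CPM in replicate 1 (two-sided 95% exact binomial interval 0.853 to 1.81) and 1.28 CPM in replicate 2 (0.838 to 1.88), with 1.43 ± 0.130 span TPM and 0.623 ± 0.0329 exonic TPM (SD, n = 2). The counts lie above the 3 that a count of 0 allows, so Kdm6b was detected in both libraries at a low level. Within each library the log2 ratio of Kdm6a over Kdm6b was 5.32 and 5.61 in span TPM, and Kdm6a was 44.0-fold higher by span and 380-fold higher by exonic length.

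**Figure D1:**
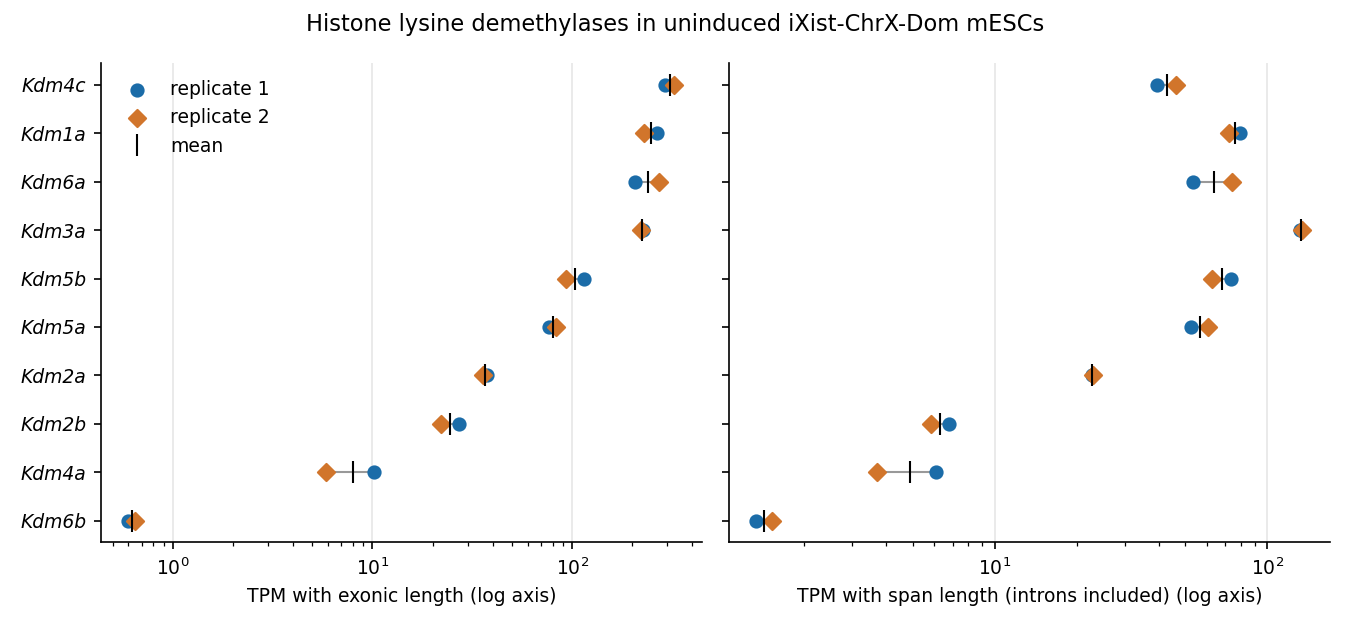
Levels of the 10 demethylases in TPM on log axes, with exonic length on the left and span length on the right. Blue circles are replicate 1, orange diamonds replicate 2, and black bars the means. Levels run from 0.623 TPM (Kdm6b) to 308 TPM (Kdm4c) on the exonic scale and from 1.43 TPM (Kdm6b) to 133 TPM (Kdm3a) on the span scale.

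The order of the members was read with neighbours called apart only where both replicates of one lay above both of the other. An exact permutation test of 2 against 2 values cannot give a two-sided p below 0.333, so no pair was tested. By span the order was Kdm3a, Kdm1a, Kdm5b, Kdm6a, Kdm5a, Kdm4c, Kdm2a, Kdm2b, Kdm4a and Kdm6b, and 5 of 9 neighbouring pairs were apart. The neighbours from Kdm1a to Kdm5a were not, nor were Kdm2b and Kdm4a. By exonic length the order was Kdm4c, Kdm1a, Kdm6a, Kdm3a, Kdm5b, Kdm5a, Kdm2a, Kdm2b, Kdm4a and Kdm6b, and 7 of 9 pairs were apart. Here Kdm1a and Kdm6a overlapped, as did Kdm6a and Kdm3a. The lowest 4 places were held by Kdm2a, Kdm2b, Kdm4a and Kdm6b on both scales.

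Paralogues that act on the same mark were compared within each library, where depth cancels. On 3 of 4 pairs the sign of the log2 ratio was the same in both replicates with span length, with exonic length and with no length. The exception was Kdm5a over Kdm5b, with −0.49 and −0.05 in span TPM, a mean of −0.27 ± 0.31 (SD, n = 2). Without a length its ratio was −0.34 in replicate 1 and 0.09 in replicate 2, and with exonic length it was −0.59 and −0.16, a mean of −0.37 ± 0.31. Kdm5b was thus the higher in both replicates per length, on either length, and in 1 of 2 replicates by counts alone, and the difference was not tested.

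**Figure D2:**
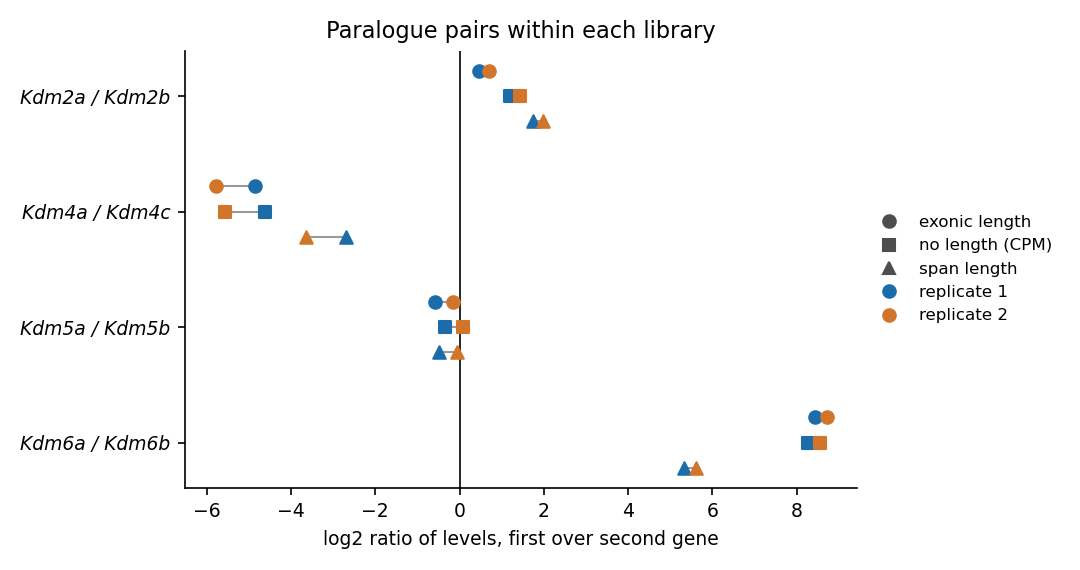
Log2 ratio of the first over the second gene of 4 paralogue pairs within each library. Circles use exonic length, squares no length and triangles span length; blue is replicate 1 and orange replicate 2. Kdm4a over Kdm4c lies below 0 throughout and Kdm6a over Kdm6b above 5, while Kdm5a over Kdm5b lies on both sides of 0.

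The replicates were then compared for each member, by a two-sided exact binomial test that set its counts beside the library totals, adjusted by Benjamini-Hochberg over 14536 genes. This compares 1 library with 1 library and not conditions, and its p-values cover counting error only, because PCR copies of a molecule could not be counted as 1. Of the 10 members, 8 differed at an adjusted p of 0.05, against 60.8% of all genes tested; 6 were lower in replicate 2, against 45.7%, and 2 were higher, against 15.1%. Kdm4a had the largest ratio, with a log2 CPM ratio of replicate 2 over replicate 1 of −0.88 (binomial test, adjusted p = 2.21e-11). Kdm5b followed with −0.39 (adjusted p = 3.44e-52) and Kdm2b with −0.39 (adjusted p = 1.2e-08), and Kdm1a had −0.30 (adjusted p = 1.75e-25). The smaller ratios of Kdm2a, −0.15, and Kdm3a, −0.13, passed as well. Kdm6a was higher in replicate 2 by 0.31 (adjusted p = 3.1e-48) and Kdm4c by 0.06 (adjusted p = 0.00535), while Kdm5a (adjusted p = 0.204) and Kdm6b (adjusted p = 1) did not pass. The spread between the libraries, as the edgeR biological coefficient of variation over 12648 genes, was 0.277.

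These directions depended on the scaling. TMM factors added 0.26 to every log2 ratio, and with them 7 members passed, 2 of them lower in replicate 2 against 28.9% of all genes tested and 5 higher against 28.8%. Relative to that shift Kdm4a stayed lower, at −0.62, and so did Kdm5b, at −0.14. Kdm2a and Kdm3a turned to 0.10 and 0.12, and Kdm1a and Kdm2b no longer passed. Kdm6a stayed higher, at 0.57. DESeq2 size factors gave the same counts of members, beside 26.1% of all genes tested lower and 31.6% higher. With a trend on GC content in place of the totals, 1 member was lower, against 21.6% of all genes tested, and 5 were higher, against 24%. Kdm4a then had −0.23 and no longer passed (binomial test, adjusted p = 0.146), Kdm1a turned to 0.24, and Kdm6a had 0.24. With that trend the ES cell markers went both ways, from −2.65 (Dppa5a) and −1.99 (Pou5f1) to 0.25 (Zfp42) and 0.54 (Klf4), and their part in the members' ratios was not tested.

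The members' levels and replicate ratios moved with the GC content of their transcripts. Across the 9693 genes that had 50 or more counts in both libraries, the log2 ratio between replicates had a Spearman's rho of −0.65 with GC content, mean CPM had a rho of −0.47 and mean exonic TPM one of −0.42. Over the 10 members, rho was −0.66 for the ratio, −0.92 for CPM and −0.70 for exonic TPM (across genes of the same libraries, which are not independent replicates). Over the 27 members and other family genes together it was −0.43 for exonic TPM. The members with the lowest GC content were Kdm6a (42.5%), Kdm5a (43.3%) and Kdm4c (43.7%), and these had the 3 highest ratios. The members above 52% GC were Kdm2b (52.6%), Kdm4a (53.6%) and Kdm6b (59.6%), and these had the 3 lowest exonic levels. The part of GC content in the levels was not tested. Among genes within 2 percentage points of its own GC content, a set chosen once the values were known, Kdm1a (51.7% GC) stood at the 98.6 percentile of exonic TPM, Kdm4c at 94.3, Kdm3a at 93.3 and Kdm6a at 91.1. Kdm4a stood at 67.7 and Kdm6b at 44.6 among such genes, so both also ranked lowest of the members there.

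**Figure D3:**
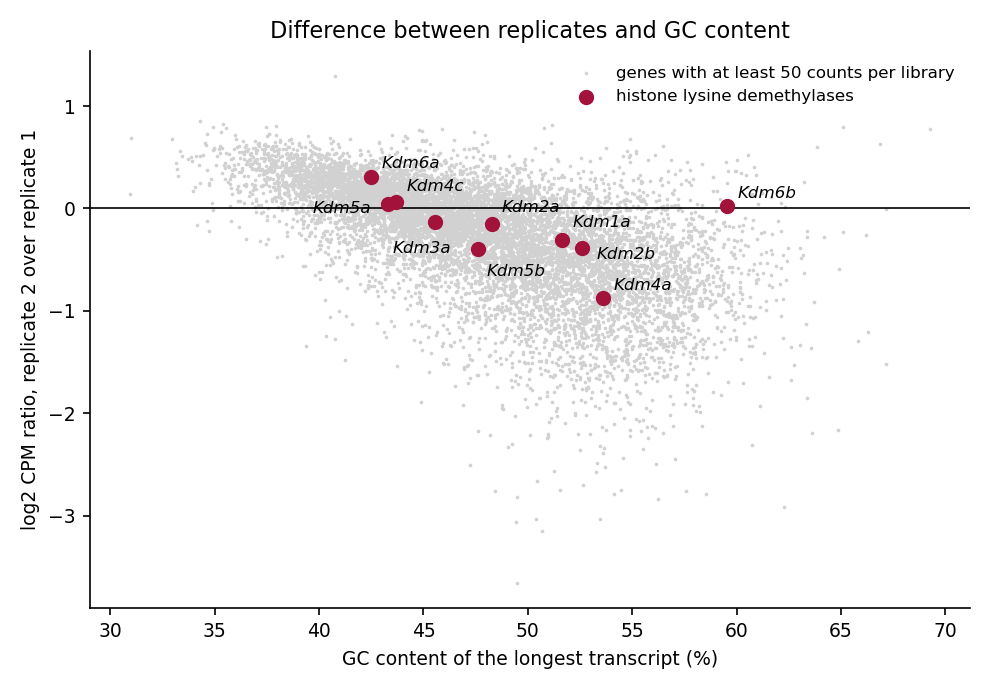
Log2 CPM ratio of replicate 2 over replicate 1 against the GC content of the longest transcript in percent. Grey points are the 9693 genes that had 50 or more counts per library and red points the 10 members, of which Kdm6b has fewer counts. The cloud slopes downwards (rho −0.65), and Kdm4a has the lowest ratio of the members at −0.88.

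Further genes of the family were read from a list of 17 demethylases and JmjC paralogues that are no members. On the span scale 11 of 17 had at least 1 TPM, against 52.7% of all genes, and on the exonic scale 14 of 17 did, against 55.4%, with a median of 22.7 exonic TPM against 91.8 for the members and 1.85 for all genes. This median was 31.2 in replicate 1 alone and 11.5 in replicate 2 alone, where that of the members was 95.5 and 88.1. Genes with at least 1 exonic TPM had a median of 18.4. The list holds the Y-linked Kdm5d and Uty, which an XX line lacks. Their 0 counts lower both the shares and the median of the list. The highest on the exonic scale was Jarid2, a Polycomb-associated JmjC protein without known demethylase activity, with 6890 and 6238 counts and 158 ± 13.2 exonic TPM (SD, n = 2). On the span scale Jarid2 had 26.6 TPM, and Riox1 was the highest of the list at 79.6 ± 31.6. Kdm4b, a further KDM4 paralogue, had 167 and 37 counts and 3.10 ± 2.49 exonic TPM, and Kdm4d had 30 and 34 counts. With them Kdm4c was the highest of the 4 KDM4 genes on the exonic scale in both replicates. Kdm1b, the second LSD enzyme, had 1675 and 1656 counts and 49.8 ± 7.25 exonic TPM, below Kdm1a in both replicates. Among the KDM3 relatives, Jmjd1c, which like Kdm3a carries a JmjC domain of the H3K9 type, had 6467 and 5579 counts and 99.6 ± 4.95 exonic TPM, and it lay below Kdm3a in both replicates. Kdm3b had 2629 and 2222 counts and 51.6 ± 1.81 exonic TPM, also below Kdm3a in both replicates. Kdm7a, which acts on H3K9 and H3K27, had 2895 and 3351 counts and 49.1 ± 12.5 exonic TPM, and its relative Phf2 had 141 and 88 counts and 3.03 ± 0.541. At the low end, Kdm8 had 20 and 17 counts and Hr, a JmjC corepressor of skin and hair, had 2 and 1. Jmjd6, a JmjC lysyl hydroxylase, had 426 and 116 counts, a log2 CPM ratio between replicates of −1.65 (binomial test, adjusted p = 8.63e-32), and Kdm4b had a ratio of −1.93 (adjusted p = 5.53e-16). In the replicate comparison 14 of these genes were tested, of which 6 were lower in replicate 2 (45.7% of all genes tested were), 3 higher (15.1%) and 5 did not pass. The balance turned with the scaling, which moved all genes. With TMM factors 4 were lower, against 28.9% of all genes tested, and 6 higher, against 28.8%. With the GC trend 3 were lower, against 21.6%, and 7 higher, against 24%.

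The X-linked demethylases are of particular relevance to a line built to silence an X chromosome. Kdm6a ranked 82 by exonic TPM and 175 by span TPM among the 532 X-linked genes with a mean span TPM of at least 1. Kdm5c, an H3K4 demethylase that also escapes X inactivation, had 2928 and 2143 counts, 42.2 ± 1.19 span TPM and 55.8 ± 3.71 exonic TPM (SD, n = 2). Phf8, which acts on H3K9 and H4K20, had 1971 and 1603 counts and 31.4 ± 0.249 exonic TPM. Kdm6a was the highest of these 3 genes in both replicates on either length. Their Y-linked partners Uty and Kdm5d had 0 counts in both libraries.

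Partners of 3 members were read from lists of their complexes. KDM1A acts with the CoREST scaffold and histone deacetylases, and 10 of 12 listed partners had at least 1 exonic TPM, with a median of 17.7. Hdac2 was the highest, at 326 ± 19.7 exonic TPM (SD, n = 2), and Kdm1a itself had 248. The scaffolds were lower, with 27.1 ± 6.86 exonic TPM for Rcor1, 20.6 ± 3.36 for Rcor3 and 7.76 ± 5.42 for Rcor2. Gfi1 and Gfi1b, blood transcription factors that recruit the complex, had 0 counts.

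KDM2B belongs to the variant Polycomb complex PRC1.1, of which 8 of 10 listed partners had at least 1 exonic TPM (median 38.5). The ubiquitin ligase component Skp1a, which serves many complexes, was the highest with 1884 ± 188 exonic TPM (SD, n = 2). The catalytic subunit Rnf2 had 7154 and 7848 counts and 336 ± 73.2 exonic TPM. The subunits that define the variant were low, with 34 and 8 counts for Pcgf1 and 400 and 317 counts (7.54 ± 0.0781 exonic TPM) for Bcor, of whose 123619 bp span 25894 bp overlap another gene of the same strand. Ring1, the paralogue of Rnf2, had 9 and 1 counts, and Cbx8, a subunit of canonical PRC1, had 0.

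KDM6A is a subunit of the MLL3 and MLL4 COMPASS complexes, which write H3K4me1. All 9 listed partners had a mean of at least 1 exonic TPM, with a median of 37.2. The shared core subunit Ash2l was the highest at 560 ± 125 exonic TPM (SD, n = 2). The catalytic subunit Kmt2c (MLL3) had 4040 and 3483 counts and 37.2 ± 1.83 exonic TPM, while its paralogue Kmt2d (MLL4) had 225 and 100 counts and had the lowest mean of the list at 1.17 ± 0.477. In replicate 2 alone Kmt2d, at 0.834, and Pagr1a, at 0.578 (named after its values were seen), lay below 1 exonic TPM. Kmt2d has a GC content of 58.4% against 47.6% for Kmt2c, and the part of GC content in this difference was not tested.

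**Figure D4:**
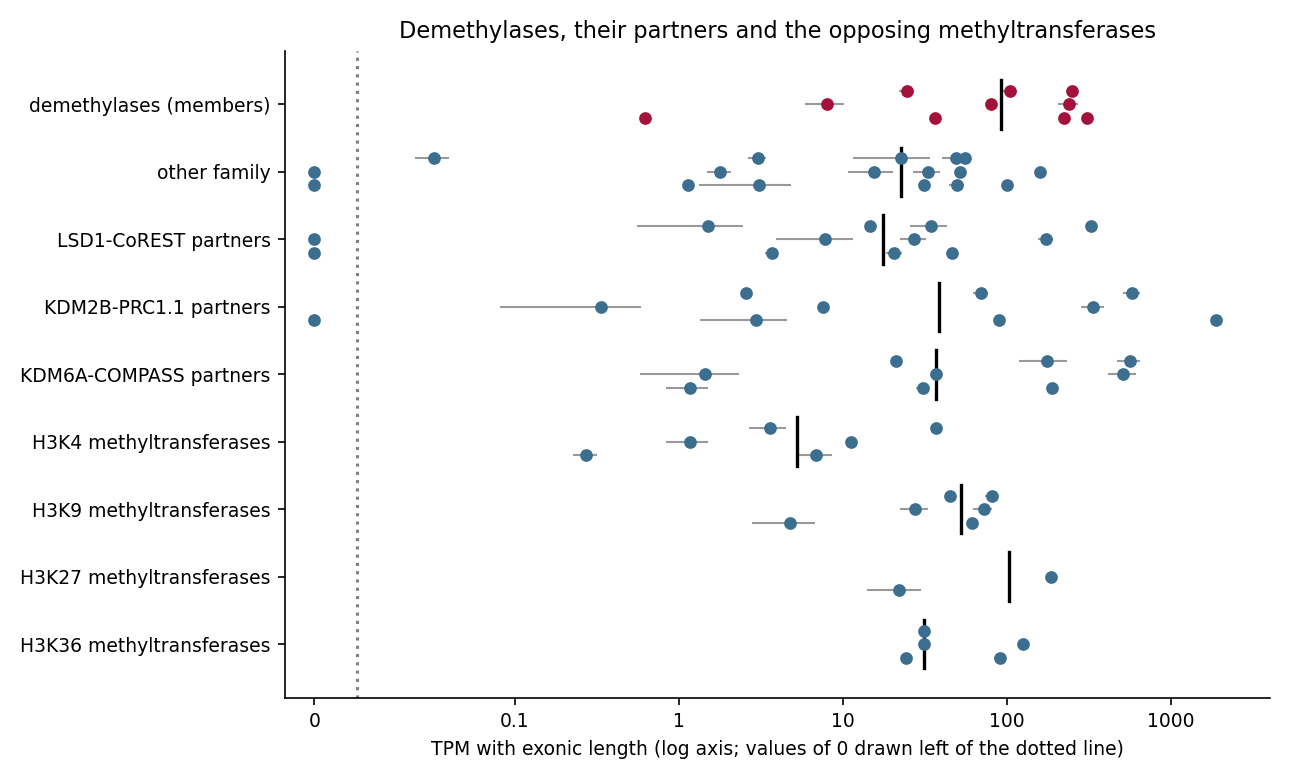
Exonic TPM on a log axis for the 10 demethylases (red) and for the related gene lists (blue). Points are means, grey lines span both replicates, black bars are list medians, and values of 0 are drawn left of the dotted line. The members' median of 91.8 TPM lies above those of the other family genes (22.7, with 31.2 in replicate 1 and 11.5 in replicate 2) and of the CoREST partners (17.7). The other family genes include the Y-linked Kdm5d and Uty, which lie at 0. The median of the 2 H3K27 methyltransferases (103) lies above that of the members.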

How the data were processed

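Gene counts were deposited by the authors as 1 table for both libraries, made by featureCounts 1.5.2, as the file header gives it, from mm10 alignments in reverse-stranded paired mode over transcript features. Bowtie2 2.3.2 and STAR 2.4.2a are named in the submitters' processing notes; how the mRNA libraries were aligned is not given in the sources used here. Columns were matched to samples by names that lack a letter b of the sample descriptions.

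TPM was computed per library with the deposited length (equal to the union of transcript spans for 22556 of 22556 genes) or GENCODE M21 basic exons (22133 genes, 98.1%). Counts were compared with exact binomial tests (scipy 1.17.1) over genes with at least 10 counts, and 0.5 counts were added for log2 ratios. The dispersion came from edgeR 4.0.16, and DESeq2 1.42.0 gave alternative size factors. The binomial test and the dispersion were tested on simulated data. The GC trend was a polynomial of degree 3. Members and lists were chosen with earlier results of these data known. Named genes were all members, the X- and Y-linked family genes and a choice of the others. Of each partner and methyltransferase list they were the highest, the lowest, those under 10 counts in total and direct partners or counterparts of members. Of the cell type markers only a choice was named.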

Additional observations from a re-analysis of the deposited data

How the results depend on the processing

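No paired analysis was possible because both libraries belong to 1 group. The median level of the members was 49.6 span TPM, 91.8 exonic TPM and 251 CPM. With exonic length, and with no length, 5 of 10 members kept their place in the span order. Without replicate 1 or replicate 2, 7 and 10 members kept their place. The log2 ratio of Kdm2a over Kdm2b was 0.58 with exonic length and 1.31 with none, that of Kdm4a over Kdm4c −5.31 and −5.09, and that of Kdm6a over Kdm6b 8.57 and 8.40.

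With TMM factors and with DESeq2 size factors, 2 members were lower and 5 higher in replicate 2, and with a GC trend 1 was lower and 5 higher, in place of 6 and 2. Of all genes tested, 28.9% were lower and 28.8% higher with TMM factors, and 26.1% and 31.6% with DESeq2 size factors. These shares were 21.6% and 24% with the GC trend, in place of 45.7% and 15.1%. Ratios that turned sign were those of Kdm1a (0.0070 with DESeq2 size factors, 0.24 with the GC trend and 0.18 against genes of like GC content), Kdm2a (0.10 with TMM, 0.16 with DESeq2 size factors, 0.18 with the GC trend and 0.0802 against like genes), Kdm2b (0.21 with the GC trend and 0.14 against like genes), Kdm3a (0.12 with TMM, 0.18 with DESeq2 size factors and 0.0039 with the GC trend) and Kdm5a (−0.0176 against like genes). The comparison against like genes was added after the data had been seen.

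List medians with exonic length and with none were 17.7 TPM and 24.6 CPM for the CoREST partners, 38.5 TPM and 25.98 CPM for the PRC1.1 partners, 37.2 TPM and 157 CPM for the COMPASS partners and 31.1 TPM and 82.3 CPM for the methyltransferases, where span TPM gave 10.1, 8.77, 18.2 and 19.3; for the other family genes the median was 26.6 span TPM and 11.8 CPM. Leaving out either replicate gave span medians of 17.1 to 24.3 for the other family genes, 9.45 to 9.74 for the CoREST partners, 18.4 to 19.3 for the COMPASS partners and 13.6 to 18.8 for the methyltransferases. The coefficient of variation was 0.294 with no filter and 0.272 with DESeq2 size factors. Of the 40 member ratios of the replicates under a rescaling or GC correction, 13 turned sign. TMM factors and DESeq2 size factors added 0.26 and 0.31 to the log2 ratio of every gene alike. Gene length cancels in these ratios, and no cause was tested. Depth limits Kdm6b, at 30 and 26 counts, more than any other member.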

Other observations

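The enzymes that write the marks the demethylases remove were read from lists of 19 methyltransferases, of which 18 had at least 1 exonic TPM. Their median was 31.1 exonic TPM, against 91.8 for the 10 demethylases. The H3K27 methyltransferase Ezh2, the catalytic subunit of PRC2, had 3962 and 3078 counts and 185 ± 4.52 exonic TPM (SD, n = 2), beside 239 ± 46.4 for Kdm6a and 0.623 for Kdm6b. Its paralogue Ezh1 had 1372 and 519 counts and 22.1 ± 11.2 exonic TPM. The median of these 2 H3K27 methyltransferases was 103 exonic TPM, above that of the demethylases.

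The 6 listed H3K4 methyltransferases had a median of 5.23 exonic TPM, with Kmt2c the highest (37.2) and Setd1b the lowest (0.271, from 15 and 17 counts), while of the H3K4 demethylases Kdm1a, Kdm5a and Kdm5b had 248, 79.7 and 104, Kdm5c and Kdm1b 55.8 and 49.8, and Kdm5d 0. The median GC content of those 6 methyltransferases was 57.7%, against 47.9% for the 10 demethylases, and its part in this difference was not tested. The 6 H3K9 methyltransferases had a median of 52.9 exonic TPM, from 4.78 ± 2.79 (Ehmt2) to 81.1 ± 10.1 (Suv39h2). The 5 H3K36 methyltransferases had a median of 31.2, from 24.3 ± 1.54 (Ash1l) to 125 ± 1.26 (Setd2), beside 36.5 for Kdm2a, 24.5 for Kdm2b, and 8.04 for Kdm4a and 308 for Kdm4c, whose family acts on H3K9 as well. None of these differences was tested.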
